A study of Mus musculus with 8 samples.

Results

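The lysosomal cathepsins and legumain were examined in mouse spinal cord during experimental autoimmune encephalomyelitis (EAE), an animal model of multiple sclerosis in which the central nervous system is inflamed and demyelinated. The 10 genes were Ctsa, Ctsb, Ctsc, Ctsd, Ctsh, Ctsk, Ctsl, Ctss, Ctsz and Lgmn, chosen by symbol in the annotation of the Affymetrix MG U74Av2 array. All 10 were measured, by 15 of the 12422 probe sets that remained after the array's own controls were set aside. Ctsb had 4 probe sets, Ctsc had 3, and the other 8 genes had 1 each.

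Whole spinal cord RNA came from female SJL/J mice of 8 to 12 weeks per the labels, while the methods give 8 weeks. The EAE group had been injected under the skin of the flank with a peptide of proteolipid protein (PLP), a myelin protein. By the labels it was killed at an average EAE grade of 2.5, on day 14, days 12 to 14, day 17, day 14 and day 15.5 for EAE arrays 1 to 5. The methods give grades from 2.5 upwards, with severe weakness or complete paralysis of the hindlimbs. In the methods the peptide was given in Complete Freund's Adjuvant with Mycobacterium tuberculosis, and pertussis toxin was injected into the peritoneum. Control mice received vehicle alone per the labels and are called healthy in the methods. They were matched for age and sex, and their day of death was that of EAE mice. Each array held RNA pooled from 2 animals, so that 5 EAE arrays stood for 10 mice and 3 control arrays for 6. The EAE mice, and not the controls as far as the labels say, also received murine serum albumin (0.1% in 100 µl, intravenously, 3 hours before they were killed), so that EAE and the albumin injection cannot be told apart. The same holds for the adjuvant and the toxin, unless the vehicle of the controls contained them. Both groups were perfused with buffered saline before the cord was removed.

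Values are log2 signals after RMA, the authors' background correction, normalization and summary of each probe set, so a difference of 1 is a 2-fold change. Arrays with the same replicate number shared a labelled batch. The difference between EAE and control was fitted with limma, a linear model that shares the estimate of spread across all probe sets, with batch as a term. It therefore rests on the 3 batches that held both groups, and EAE arrays 4 and 5, alone in their batches, do not enter it. A probe set was called higher or lower where its Benjamini-Hochberg adjusted p over the 12422 probe sets was under 0.05.

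Cathepsins are proteases that work mainly inside the acidic lysosome. Most are cysteine proteases (B, C, H, K, L, S and Z), while D is an aspartic protease and A a serine carboxypeptidase. They are made as inactive precursors, carried to the lysosome by mannose 6-phosphate receptors or sortilin, matured there by acid and by each other, and held in check outside it by cystatins, stefins and some serpins. Legumain, a cysteine protease that cuts after asparagine, helps to mature several of them. In phagocytes they digest engulfed material, which in a demyelinating cord includes myelin, and in antigen-presenting cells they trim the invariant chain and cut proteins into peptides for MHC class II molecules.

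Tissue identity was checked against marker genes. Spinal cord markers were present in both groups: the summed signal of 13 neuron genes was 13.28 to 13.40 in EAE and 13.90 to 13.93 in control arrays on the log2 scale, and that of 9 oligodendrocyte and myelin genes was 13.07 to 13.41 and 13.49 to 13.65. Pearson correlations over all probe sets were between 0.975 and 0.991 among EAE arrays, between 0.990 and 0.995 among control arrays, and between 0.931 and 0.951 across the groups. The 3′ minus 5′ difference of the Gapdh control probe sets, a sign of RNA integrity or labelling, was largest in EAE arrays 4 (2.07) and 1 (1.46). The remaining EAE arrays had 0.46 to 0.78, and control arrays 0.53 to 0.97. For beta-actin the same 2 arrays had 2.79 and 2.35, the remaining EAE arrays 1.11 to 1.83, and control arrays 1.62 to 2.29. With those 2 arrays left out and no batch term, the count of calls among the 15 probe sets was the same.

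Of the 15 probe sets, 9 were higher in EAE, 1 was lower and 5 were not called (limma, adjusted p under 0.05). Over all probe sets, 8.26% were called higher and 11.4% lower. The 9 covered 8 of the 10 genes. Ctsc, Ctss, Ctsz and Ctsh were more than 2-fold higher and called, as were 3.37% of all probe sets. Ctsd, Ctsb, Ctsa and Lgmn rose by smaller amounts. Ctsk was the gene called lower, and Ctsl was the gene with no call. An analysis of variance with the same terms but no sharing of spread across probe sets called 0 of the 15 in either direction once p values were adjusted. Before adjustment, 9 were higher and 1 lower at p under 0.05 in that analysis. The median difference of the 10 genes, each by its brightest probe set, was 0.92, and it was 0.66 over the 15 probe sets and -0.05 over all probe sets.

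In 11 of the 15 probe sets every EAE array lay above every control array, a pattern found in 10.9% of all probe sets, and in 1, that of Ctsk, every EAE array lay below, as in 15.1% of all. The groups overlapped in 3 probe sets, which belonged to Ctsb and Ctsc. By its brightest probe set, each of the 10 genes separated the groups. Since the cord holds many cell types, more cells of a type and more RNA per cell cannot be told apart.

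**Figure D1:**
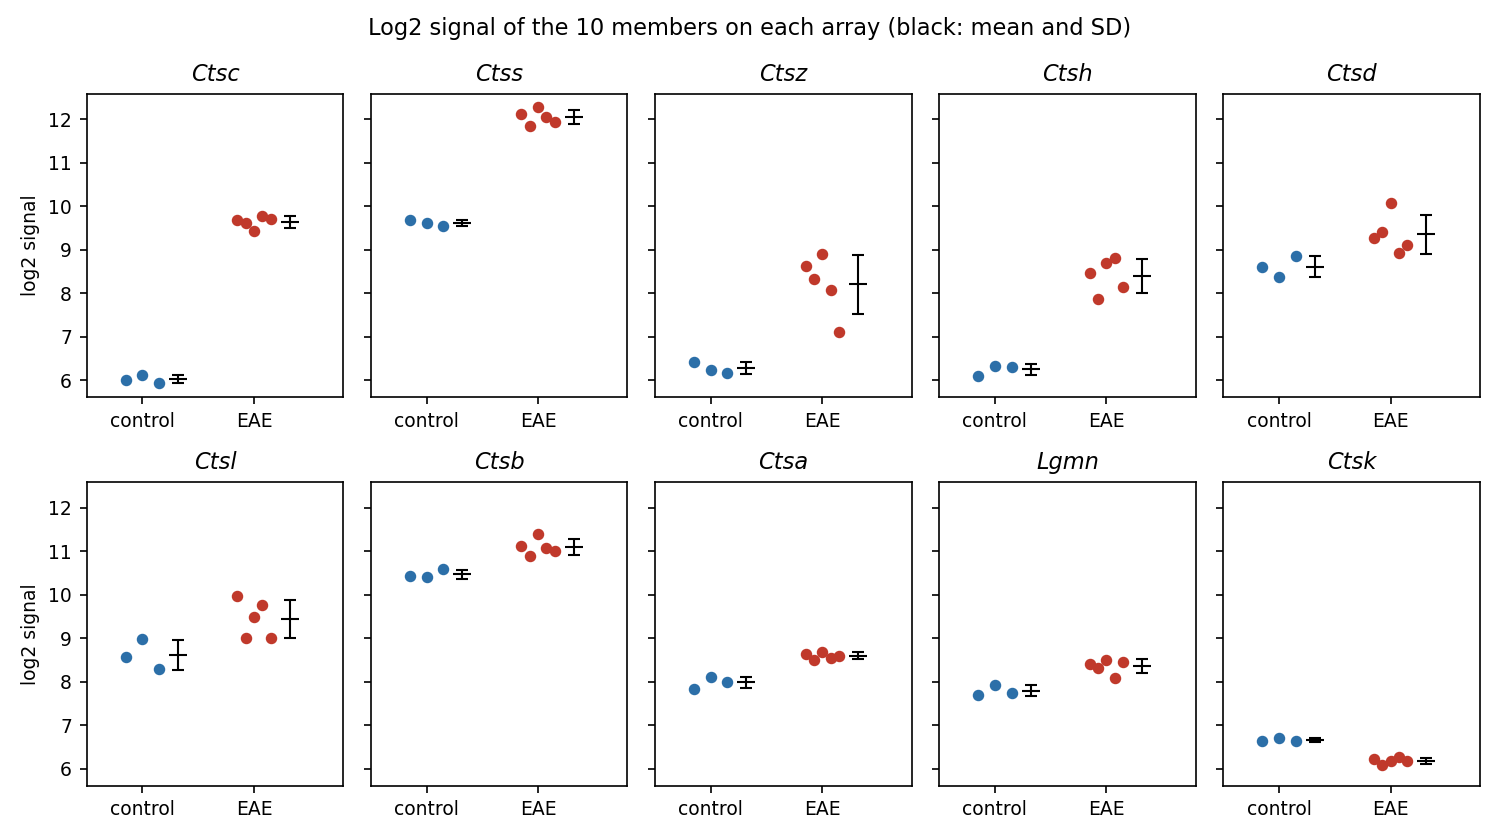
Log2 signal (vertical axis) of the brightest probe set of each of the 10 genes on the 3 control and 5 EAE arrays, 1 point an array, with the group mean and SD in black. The groups do not overlap in any panel, Ctsk is the panel with EAE below control, and the Ctsl groups come within 9.00 and 8.98 of each other.

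Among the cysteine endopeptidases, Ctss, Ctsl and Ctsk, the difference had no common direction. Cathepsin S is made mainly by antigen-presenting cells and macrophages, keeps its activity at neutral pH, and makes the last cuts in the invariant chain. The Ctss probe set 98543_at read 12.13, 11.86, 12.28, 12.06 and 11.94 in EAE arrays 1 to 5 and 9.68, 9.61 and 9.55 in control arrays 1 to 3. The groups lay far apart, with array 3 the highest of EAE. The difference was 2.47 (95% interval 2.20 to 2.75), or 5.56-fold (4.60 to 6.72), with an adjusted p of 0.000421. It was 2.45, 2.25 and 2.73 in batches 1, 2 and 3.

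Cathepsin K is known as the collagen-cutting protease of osteoclasts and is also made by fibroblasts. Its probe set 160406_at read 6.24, 6.09, 6.19, 6.27 and 6.18 in EAE and 6.65, 6.71 and 6.64 in control arrays. Every EAE array was below every control array, and the spread within each group was small (6.19 ± 0.07, SD, n = 5, and 6.67 ± 0.04, SD, n = 3). Ctsk fell by 0.49 on the log2 scale (95% interval -0.68 to -0.30), which is 1.41-fold lower (1.23 to 1.61), with an adjusted p of 0.0134. The call did not hold when batch 2 was left out (-0.43, adjusted p = 0.0638) or batch 3 (-0.51, adjusted p = 0.0809), while the direction was the same in every batch (-0.41, -0.62 and -0.45). Of 12 marker genes of fibroblasts and meninges 2 were called higher and 0 lower (summed signal 11.57 to 11.85 in EAE, 11.50 to 11.74 in control), although Igf2 stood at -0.54 (adjusted p = 0.0503). Of 5 osteoclast and bone genes 2 were higher and 0 lower (7.94 to 8.40 and 7.64 to 7.67). Of all genes 9.19% were called higher and 13.5% lower. Of 13 neuron genes 0 were higher and 7 lower (median difference -0.49). Of 9 oligodendrocyte and myelin genes 0 were higher and 4 lower (median -0.53). The part of these cells in the Ctsk difference was not tested.

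Ctss and Ctsk are neighbours on mouse chromosome 3, with 1 other annotated gene, a long non-coding RNA, between them in the RefSeq table of GRCm38.p6. Their responses differed by 2.91 on the log2 scale (two-sided exact permutation test with 56 regroupings, p = 0.0179, the smallest it can give). Each gene alone separated the groups, in opposite directions, so this p was fixed in advance and adds no support. Within batches 1, 2 and 3 the difference was 2.86, 2.87 and 3.18. Because the pair moved in opposite directions, stretches of 120 bases just before each start site are shown here, with that of Ctsd, from the RefSeq promoter table (GRCm38.p6). The capitals mark the motifs that were searched for on both strands: a GAAA repeat with any 2 bases between its copies, as interferon regulatory factors bind, the PU.1 core GAGGAA, which reads TTCCTC on the other strand, and CACGTG and TCANNTGA, cores bound by the TFEB and MITF family, which overlap where the letters are TCACGTGA.
Ctss, chr3:95526666-95526785, plus strand: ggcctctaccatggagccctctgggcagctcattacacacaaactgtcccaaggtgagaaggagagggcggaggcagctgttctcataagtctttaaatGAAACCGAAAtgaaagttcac
Ctsk, chr3:95499090-95499209, plus strand: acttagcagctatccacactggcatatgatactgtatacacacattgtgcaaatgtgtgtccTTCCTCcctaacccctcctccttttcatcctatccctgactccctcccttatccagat
Ctsd, chr7:142387828-142387947, minus strand: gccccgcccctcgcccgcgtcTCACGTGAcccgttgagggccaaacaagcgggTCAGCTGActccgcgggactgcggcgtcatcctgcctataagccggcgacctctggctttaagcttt

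The Ctss stretch held GAAACCGAAA, 21 bases before the start site. Such a repeat was found in the 250 bases before the start in 2.98% of 32851 promoters and, among the 10 promoters listed for 8 of these genes, in Ctss alone. GAGGAA, which 23.3% of all promoters held, was found in 3 of the 10, those of Ctsc, Ctsk and Ctss. CACGTG was found in 4 of the 10, those of Ctsa, Ctsd, Ctsl and Lgmn, against 6.02% of all promoters, and TCANNTGA in 3, those of Ctsa, Ctsd and Ctsk, against 7.09%. TTCNNNGAA, a core of STAT sites, was found in 1 of the 10, that of Ctsc, and in 7.02% of all, and the AP-1 core TGANTCA in 0 of the 10 and in 6.75% of all. A further promoter listed for Ctsa and another for Lgmn held none of the motifs searched for. Ctsb and Ctsh were not in the table. A match describes the letters and is not evidence of binding.

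Cathepsin L, the third endopeptidase, is a general protease of the lysosome in many cell types. The Ctsl probe set 101963_at read 9.98, 9.00, 9.49, 9.76 and 9.02 in EAE and 8.58, 8.98 and 8.29 in control arrays. EAE arrays 2 and 5 were hardly above the highest control array, control array 2. The fitted difference was 0.87 (95% interval 0.16 to 1.58) with an adjusted p of 0.0957, so that Ctsl was not called. Within batches it was 1.40, 0.02 and 1.20. With batch 2 left out it was 1.30 with an adjusted p of 0.00944, while it was 0.61 (adjusted p = 0.238) without batch 1 and 0.71 (adjusted p = 0.371) without batch 3. It passed the test with batch as a random term (adjusted p = 0.0377) and among the brighter probe sets alone (adjusted p = 0.0386). EAE arrays 1 and 4, the highest for Ctsl, were those with the largest 3′ minus 5′ differences, and without them and the batch term the difference was 0.55 (adjusted p = 0.115).

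The cysteine cathepsins that cut from the ends of proteins, Ctsc, Ctsh, Ctsz and Ctsb, were all higher in EAE by their brightest probe set. Cathepsin C, or dipeptidyl peptidase I, removes pairs of amino acids from the N terminus and is known for activating the serine proteases of lymphocyte, neutrophil and mast cell granules. Its probe set 101019_at read 9.69, 9.62, 9.43, 9.78 and 9.72 in EAE and 6.00, 6.13 and 5.95 in control arrays. The lowest EAE array stood more than 3 log2 units above the highest control array. The difference was 3.56 (95% interval 3.36 to 3.75), or 11.8-fold (10.3 to 13.5), with an adjusted p of 9.99e-05, and it was 12.9-fold, 11.2-fold and 11.2-fold in batches 1, 2 and 3. Among the 12422 probe sets it was the 36th in order of rise, and its interval lay above those of the other 9 genes.

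The other Ctsc probe sets did not show this rise. Probe set 101020_at read 5.37, 5.38, 5.23, 5.63 and 5.38 in EAE and 4.93, 4.97 and 5.16 in control arrays, a difference of 0.31 (adjusted p = 0.0943, not called). The groups did not overlap, although the margin was small. Probe set 161251_f_at, whose suffix marks probes shared among related sequences, read 5.02 to 5.18 in EAE and 5.10 to 5.33 in control arrays, a difference of -0.10 (adjusted p = 0.574). The response of 101019_at exceeded that of 101020_at by 3.25 and that of 161251_f_at by 3.72, each with p = 0.0179 (exact permutation test, two-sided, adjusted p = 0.0268 over 9 pairs of probe sets). That is the smallest p the test can give. Since the groups stood so far apart in 101019_at alone, it was fixed in advance and adds no support. Both of these probe sets were dim. Their EAE and control means were 5.40 and 5.02 for 101020_at and 5.12 and 5.21 for 161251_f_at, below the array medians of 6.08 to 6.13. Whether they could show a change was not tested. Averaged over its 3 probe sets, the dim ones included, Ctsc would be higher by 1.25.

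Cathepsin B, which removes pairs of amino acids from the C terminus and can also cut within proteins, gave a divided picture too. Probe set 94831_at read 11.13, 10.90, 11.40, 11.09 and 11.01 in EAE and 10.43, 10.41 and 10.59 in control arrays, and the groups stood apart by a difference of 0.66 (1.58-fold, adjusted p = 0.00894). Probe set 95608_at read 8.16, 7.95, 8.41, 8.22 and 8.30 in EAE and 7.51, 7.33 and 7.36 in control arrays, with a difference of 0.77 (1.70-fold, adjusted p = 0.0108). Both put array 3 highest and array 2 lowest among EAE arrays. The other probe sets of Ctsb were not called. Probe set 92256_at ran from 7.22 to 7.50 in EAE and from 7.19 to 7.50 in control arrays, with a difference of -0.04 (95% interval -0.31 to 0.24, adjusted p = 0.869). Probe set 162271_f_at ran from 6.07 to 6.46 and from 6.00 to 6.07, with a difference of 0.14 (95% interval -0.06 to 0.34, adjusted p = 0.297).

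The responses of 94831_at and 95608_at did not differ beyond the spread between arrays (-0.18, exact permutation p = 0.125, adjusted p = 0.141). Both exceeded that of 92256_at, by 0.62 and 0.80 (each p = 0.0179, the smallest the exact permutation test can give, adjusted p = 0.0268). Since 94831_at and 95608_at each separated the groups while 92256_at hardly moved, this p adds little support. Of the 9 pairs of probe sets of Ctsb and Ctsc, 6 differed at an adjusted p under 0.05, all 6 at that smallest p. The average over the 4 Ctsb probe sets was 0.38. Where each probe set lies on its transcript was not examined here.

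**Figure D2:**
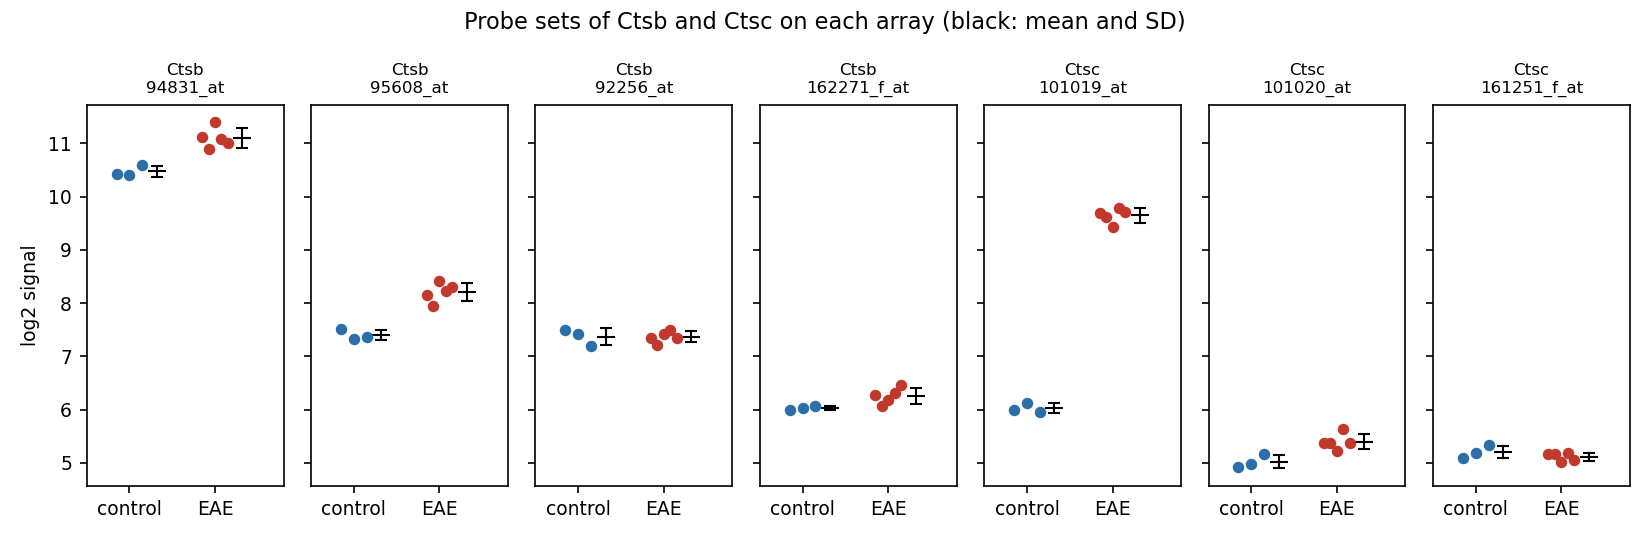
Log2 signal (vertical axis) of the 4 Ctsb and 3 Ctsc probe sets on the control and EAE arrays, 1 point an array, with the group mean and SD in black. Probe sets of the same gene differ in response, with 101019_at of Ctsc at 9.43 to 9.78 in EAE arrays while 161251_f_at stays between 5.02 and 5.33 in both groups.

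Cathepsin H trims amino acids one by one from the N terminus and is found in macrophages and lung epithelium. Its probe set 94834_at read 8.46, 7.87, 8.70, 8.82 and 8.14 in EAE and 6.11, 6.33 and 6.32 in control arrays. All EAE arrays were well above control, and their own spread was more than 3 times as wide (SD 0.39, n = 5, against 0.12, n = 3). The difference was 2.09 (95% interval 1.62 to 2.56), or 4.26-fold (3.08 to 5.91), with an adjusted p of 0.0032, and batch 2 gave the smallest of the 3 values (2.35, 1.54 and 2.38).

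Cathepsin Z, also called cathepsin X, removes single amino acids from the C terminus and is made largely by cells of the macrophage line. Its probe set 92633_at read 8.63, 8.33, 8.90, 8.08 and 7.12 in EAE and 6.43, 6.24 and 6.18 in control arrays. The EAE arrays were spread more widely than for any other of the 10 genes, with array 5 lowest, yet array 5 was still above the highest control array. The difference was 2.34 (95% interval 1.99 to 2.69), or 5.06-fold (3.96 to 6.46), with an adjusted p of 0.00091. EAE arrays 4 and 5 do not enter that estimate, and the plain difference of group means, which counts them, was 1.93. The intervals of Ctss, Ctsz and Ctsh overlapped one another.

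Cathepsin D, the main aspartic protease of the lysosome, rose less and less evenly. Its probe set 93810_at read 9.27, 9.42, 10.07, 8.92 and 9.11 in EAE and 8.61, 8.38 and 8.86 in control arrays. EAE array 3 stood highest, and EAE array 4 was only slightly above control array 3. The difference was 0.97 (95% interval 0.66 to 1.27), or 1.96-fold (1.58 to 2.42), with an adjusted p of 0.00798, and it was 0.66, 1.04 and 1.21 within batches. Without the batch term the difference was 0.74 and the call was lost (adjusted p = 0.0637), and it was also lost with batch 3 left out (0.85, adjusted p = 0.0581).

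Cathepsin A, a serine carboxypeptidase that also protects beta-galactosidase and neuraminidase in the lysosome, and legumain showed small rises. The Ctsa probe set 101055_at read 8.65, 8.51, 8.70, 8.55 and 8.60 in EAE and 7.85, 8.12 and 8.00 in control arrays, a difference of 0.63 (1.55-fold, 95% interval 1.30 to 1.85, adjusted p = 0.0148). The Lgmn probe set 93261_at read 8.42, 8.33, 8.50, 8.10 and 8.46 in EAE and 7.71, 7.94 and 7.75 in control arrays, a difference of 0.62 (1.53-fold, 1.30 to 1.82, adjusted p = 0.0139). In both genes batch 2 gave the smallest difference, 0.40 for Ctsa and 0.39 for Lgmn, where control array 2 was the highest control array. With batch 3 left out, neither passed the test (0.60 with an adjusted p of 0.102, and 0.55 with an adjusted p of 0.0928), and the same held for 94831_at of Ctsb (0.59, adjusted p = 0.0653), while Ctsc, Ctss, Ctsz, Ctsh and 95608_at of Ctsb still passed.

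**Figure D3:**
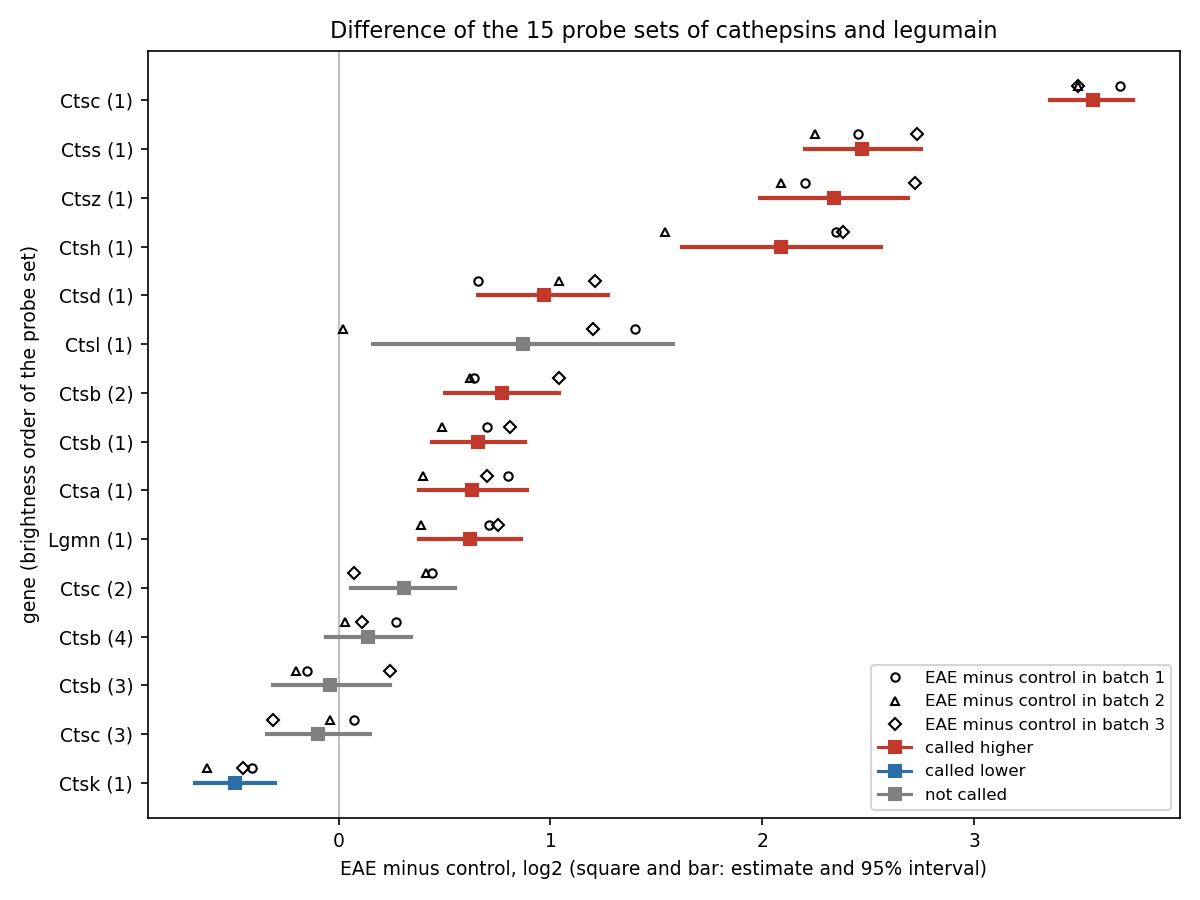
EAE minus control difference on the log2 scale (horizontal axis) for the 15 probe sets, numbered by brightness within each gene, with squares and bars for the limma estimate and its 95% interval and open symbols for batches 1 to 3. Ctsc (3.56), Ctss (2.47), Ctsz (2.34) and Ctsh (2.09) stand apart from the rest, Ctsk (-0.49) is below 0, and the 3 Ctsl batch values run from 0.02 to 1.40.

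The genes did not rank the EAE arrays alike. EAE array 3, from day 17, gave the highest EAE value for 6 genes, Ctsa, Ctsb, Ctsd, Ctss, Ctsz and Lgmn. EAE array 2, from days 12 to 14, gave the lowest for 6, Ctsa, Ctsb, Ctsh, Ctsk, Ctsl and Ctss. Ctsc was lowest in EAE array 3, and its 5 values lay within 0.35. The range over EAE arrays was 1.78 for Ctsz, 1.15 for Ctsd, 0.98 for Ctsl and 0.95 for Ctsh, against 0.18 for Ctsa and Ctsk. With 1 array per day or range of days, apart from day 14, day and array cannot be told apart. EAE array 3 also had the highest summed signal of macrophage and microglia genes.

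**Figure D4:**
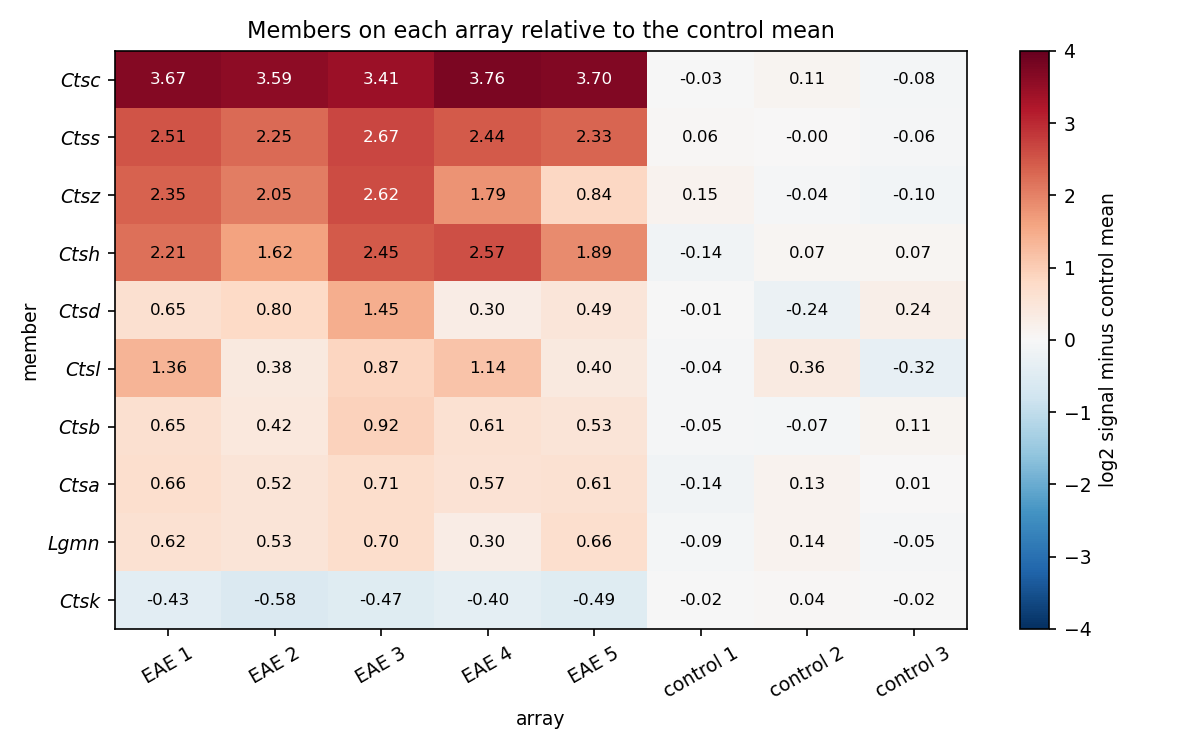
Log2 signal minus the control mean for the brightest probe set of each gene (vertical axis) on each array (horizontal axis), coloured from blue (below the control mean) to red (above). EAE values of Ctsc run from 3.41 to 3.76, those of Ctsz from 0.84 to 2.62, and the Ctsk values are below 0 in each of the 5 EAE arrays.

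Across the 8 arrays the 36 pairs among the 9 genes other than Ctsk correlated at r = 0.44 to 0.99, and the 9 pairs with Ctsk at -0.97 to -0.61. These values, which carry no test, reflect the shared difference between groups as well as variation within them. The probe sets most like each member by Pearson correlation over the 8 arrays were Mpeg1 (0.999) and Cd48 (0.9981) for Ctss, Ifi204 (0.9988) and Gbp2 (0.9987) for Ctsc, and Hal (0.9967) and Irf5 (0.9963) for Ctsh. For Ctsz they were D17H6S56E-5 (0.9882) and Itgam (0.9831), for Ctsb Sgpl1 (0.9902) and Cebpa (0.9895), and for Ctsd Klf13 (0.9903) and Sh3bp2 (0.9786). For Ctsk they were Sh3bgr (0.9924) and Meox1 (0.9876), for Ctsa Cd3e (0.9859) and Eif4e2 (0.9831), for Ctsl Bcl2l11 (0.9816) and Gtf2f2 (0.9712), and for Lgmn St6galnac4 (0.9788) and Lmo4 (0.9744).

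Most marker genes of macrophages and microglia were higher in EAE too. For the counts that follow, the shares over all 8251 genes were 9.19% called higher and 13.5% lower. Of 24 macrophage and microglia genes 22 were higher and 0 lower, and their summed signal was 13.36 to 13.94 in EAE against 10.83 to 10.99 in control arrays. The list does not separate infiltrating from resident cells. Its 2 genes that were not called were Cx3cr1 (0.00, adjusted p = 0.988) and Fcgr3 (0.06, adjusted p = 0.611). Of 13 neutrophil genes 7 were higher and 0 lower (11.36 to 12.17 against 9.29 to 9.35). Among these, Lcn2 (10.47) and S100a8 (9.31) had the highest EAE means. The 6 not called were Ly6g, Elane, Mpo, Csf3r, Cxcr2 and Prtn3. Of 13 T cell genes 5 were higher and 1 lower. Their summed signal (10.70 to 11.14 against 10.86 to 11.20) came mostly from Thy1, which neurons also express and which was the gene called lower (mean 10.17 in EAE, 10.50 in control). Of 8 dendritic cell genes 2 were higher and 2 lower (10.11 to 10.44 against 10.37 to 10.60), and of 8 B cell genes 0 and 0 (9.17 to 9.30 against 9.20 to 9.55). Of 9 endothelial genes 3 were higher and 0 lower (10.10 to 10.38 against 9.75 to 9.96), and of 2 red blood cell genes 0 and 0 (6.58 to 9.11 against 6.85 to 7.31). Of 13 neuron genes 0 were higher and 7 lower, of 9 oligodendrocyte and myelin genes 0 and 4, and of 9 astrocyte genes 1 and 2 (13.34 to 13.64 against 13.60 to 13.68). No marker gene was at 0 on this scale, where the lowest array value of all was 3.07, and the part of these cell types in the cathepsin differences was not tested.

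Of 11 other cathepsins and lysosomal peptidases 2 were higher and 0 lower, with a median difference of -0.07. Of all 8251 genes 9.19% were higher and 13.5% lower, with a median of -0.05. Napsa, which encodes the aspartic protease napsin A, rose by 1.13 (adjusted p = 0.0009), and Scpep1, a serine carboxypeptidase, by 0.71 (adjusted p = 0.00521).

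Of 11 genes listed as inhibitors, namely cystatins, stefins, serpins and related genes such as Ctla2a and Ctla2b, 4 were higher and 0 lower, with a median of 0.15. Ctla2b, related to the propeptide of cathepsin L, rose by 2.34 (adjusted p = 0.00135), Cst7, the cystatin F of leukocytes and an inhibitor of cathepsin C, by 2.27 (adjusted p = 0.000672), and Serpinb9, an inhibitor of granzyme B, by 1.20 (adjusted p = 0.00386). Cstb, which encodes stefin B, was the other gene called, with a rise of 1.15 (adjusted p = 0.00491).

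Among 30 other soluble lysosomal enzymes and activators 9 were higher and 1 lower (median 0.11). The 1 was Gm2a, the GM2 activator (-0.42, adjusted p = 0.0196), which was not called with batch 1, 2 or 3 left out. Ifi30, a thiol reductase that unfolds antigens, rose by 2.84 (adjusted p = 0.000683), Grn, which encodes progranulin, by 2.68 (adjusted p = 0.000323), and Man2b1, an alpha-mannosidase, by 1.85 (adjusted p = 0.000856). Of 28 lysosomal membrane proteins and proton pump subunits 8 were higher and 5 lower (median -0.09). Cd68, a glycoprotein of macrophage lysosomes, rose by 2.71 (adjusted p = 0.0035), Laptm5, of leukocyte lysosomes, by 2.10 (adjusted p = 0.000231), and Slc11a1, a metal transporter of the phagosome, by 1.94 (adjusted p = 0.000821). The 5 called lower, Npc1 and Laptm4b with the pump genes Atp6ap1, Atp6v1c1 and Atp6v1h, lay between -0.60 and -0.31, and with batch 2 or batch 3 left out 0 of them were called. With batch 3 left out, 4 genes of this list were called higher in place of 8.

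Of 20 genes for sorting to the lysosome and for its transcription factors, 0 were called either way by limma (median -0.08). The lowest p belonged to Vps35, a subunit of the retromer that recycles sorting receptors, at -0.27 (adjusted p = 0.0667). Without the batch term 2 of the 20 were called lower.

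In pathways that these proteases serve, 12 genes of MHC class II chains and their loading had 7 higher, 0 lower and a median of 1.10. Cd74, the invariant chain, rose by 5.15 (adjusted p = 0.000856), H2-Aa by 4.96 (adjusted p = 0.00173) and H2-Eb1 by 3.71 (adjusted p = 0.00325). The 16 granule serine proteases that cathepsin C can activate had 1 higher, 0 lower and a median of 0.01. The 1 was Gzmb, or granzyme B, at 1.15 (adjusted p = 0.00108). Mean EAE signals of the 16 ran from 4.08 to 6.74, that of Gzmb, where the lowest array value of all was 3.07. Whether the dim ones could show a change was not tested. These counts describe each list, and the difference between lists was not tested.

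**Figure D5:**
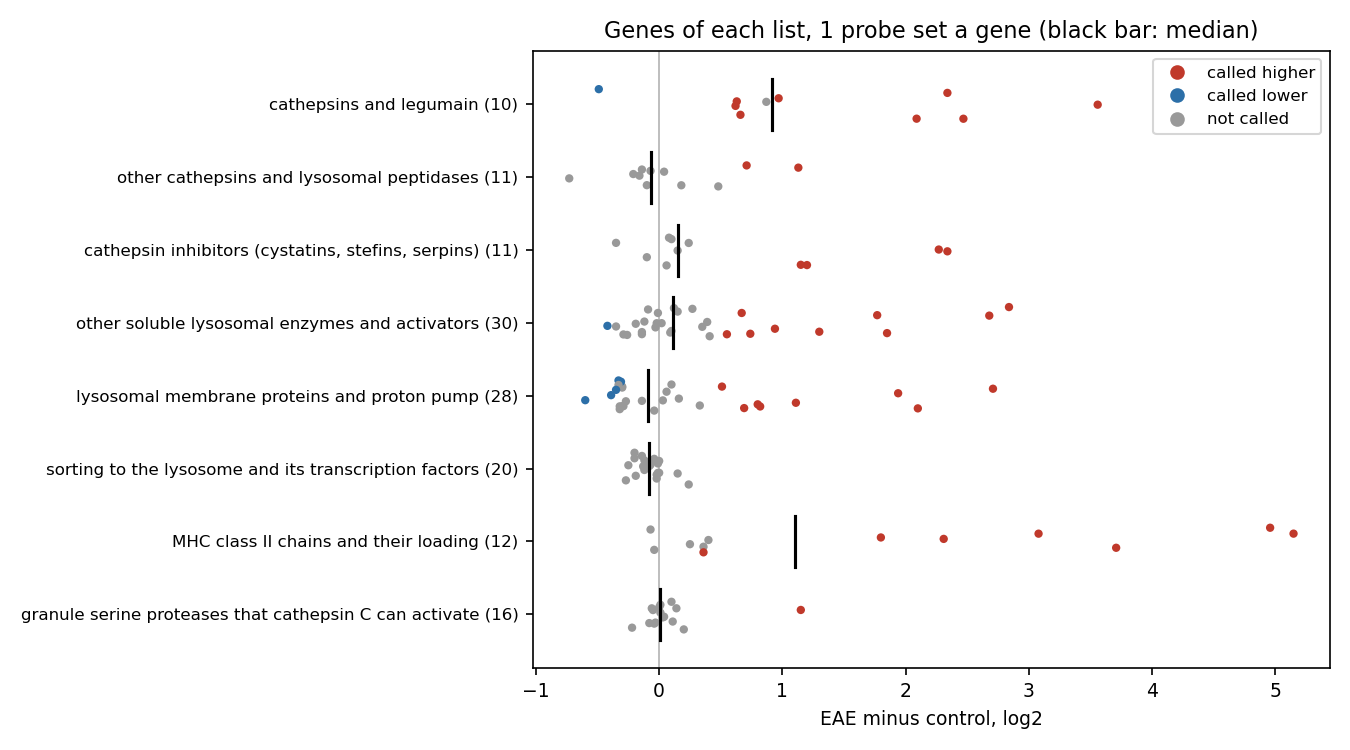
EAE minus control difference on the log2 scale (horizontal axis) of each gene of the 10 cathepsins and legumain and of 7 lists (rows, number of genes measured in brackets), 1 point a gene, with a black bar at each median. Medians are 0.92 for the 10 genes and 1.10 for the MHC class II list, and between -0.09 and 0.15 for the other lists.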

How the data were processed

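The authors measured spinal cord RNA on 8 Affymetrix MG U74Av2 arrays and deposited log2 values, which they had made in Partek Genomics Suite with RMA, quantile normalization, a GC adjustment and a log2 transformation. Versions are not given in the sources used here. The values were not normalized again. Groups and batches came from the labels. The annotation gave 1 gene symbol for 10833 probe sets, several for 396 and none for 1193, and 66 array controls were left out. A match by Entrez identifier to the GRCm38.p6 gene table covered 10817 symbols and changed 0.

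The EAE and control groups were compared in limma 3.58.1 (R 4.3.3), by lmFit and eBayes (treatment and batch as fixed terms, 12422 probe sets, no filter on dim probe sets, 2 residual and 3.05 prior degrees of freedom), with two-sided p values adjusted by the Benjamini-Hochberg method. The methods' treatment and batch analysis of variance without shared spread was run as an alternative. Exact permutation tests ran over 56 regroupings in Python 3.11.15, and figures were drawn with matplotlib 3.10.9. The scripts were tested on simulated data. Arrays with the same number are paired by the labelled batch, and their deviations from group means correlated at 0.302, -0.231 and 0.412 in batches 1, 2 and 3. Each array is a separate pool of animals, and the number of arrays limits the precision.

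The 10 genes, the 7 pathway and 12 marker lists (339 genes listed, 247 measured, 6 in more than 1 list) and the tests were chosen with earlier results of these data known. For lists, each gene was taken by its brightest probe set, by mean over the 8 arrays. Named genes are all members with every probe set, up to 3 genes of each pathway list with the largest change among those called or the 1 with the lowest p, and the 2 probe sets most correlated with each member. Cstb, Gm2a, Cx3cr1, Fcgr3, Thy1, Igf2, the named neutrophil genes and the 5 membrane genes called lower were added to the named genes once their values had been seen. Alternatives were no or a random batch term, an intensity trend, a robust prior, array weights, median centring, further quantile normalization, the brighter probe sets, the mean or another choice of probe set, a threshold of 0.01, and leaving out each array. One alternative without EAE arrays 1 and 4 was chosen after seeing the data.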

Additional observations from a re-analysis of the deposited data

Results flagged for a closer look

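Of 34 sets of 5 EAE values that were checked for an array far from the others (all member probe sets and the summed signal of each list), 3 held one, and chance gives about 1 in 20. None was a probe set of a cathepsin or of legumain. The summed signal of macrophage and microglia genes stood at 13.94 in EAE array 3, and the other 4 EAE arrays lay between 13.36 and 13.46. The summed signal of the other soluble lysosomal enzymes and activators was 13.15 in the same array and 12.79 to 12.88 elsewhere in EAE. The summed signal of neuron genes was 13.28 in EAE array 1 and 13.37 to 13.40 in the rest.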

How the results depend on the processing

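Over the probe sets and alternatives together, 270 values kept their direction and their side of the threshold, 27 lost the call, 6 gained one and 0 changed direction among those called. These totals include repeats and so overstate the agreement. Leaving out EAE array 4 or 5 repeats the main fit, and leaving out either array of batch 1, 2 or 3 gives the same values. Without the replicate block 9 probe sets were called higher and 1 lower, as with it, with Ctsd lost and 101020_at of Ctsc gained (0.38, adjusted p = 0.0264), and leaving out EAE arrays 1 and 4 as well also gave 9 and 1. A random replicate block gave 11 and 1. Leaving out 1 array gave 5 to 10 higher and 0 to 1 lower, and over all probe sets 521 to 1026 higher and 225 to 1412 lower, with the fewest when either array of batch 3 was left out. Leaving out EAE array 4 or 5 changes nothing in the blocked fit by construction. An analysis of variance without limma's shared spread, with 2 residual degrees of freedom, called 0 members higher and 0 lower (9 and 1 at an unadjusted p under 0.05), and 1 and 0 of all probe sets (1081 and 1575 unadjusted). At a threshold of 0.01, members called lower went to 0 (6 higher), and all probe sets to 540 higher and 290 lower, against 1026 and 1412. The Ctss and Ctsk difference was 2.85 to 2.95 with any array left out and 2.97 as the mean of the paired batches. The cause of these changes was not tested, apart from the fewer arrays or degrees of freedom named.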
